A study of Homo sapiens with 6 samples.

Results

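The collagen chains are described here: the genes whose symbol is COL, a number, A and a number (for example COL1A2), with COL17A1 left out. A probe set, the group of short probes that reads 1 transcript on an Affymetrix array, was taken as a member's only where the platform annotation gives it exactly 1 gene symbol. Each gene was read from its probe set with the highest mean over the 6 arrays. This gave 43 collagen genes of 18132 genes measured, with 121 probe sets in all.

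The study used TE-1, a human cancer line from a squamous carcinoma of the oesophagus, grown in RPMI-1640 with foetal bovine serum. The treated group was TE-1 with a stable knockdown of EIF3C, a subunit of the translation initiation factor eIF3, and the control group was the parental TE-1 cells. Each group had 3 arrays of total RNA, labelled as biological replicates. The knockdown cells were 1 clone according to the labels, so a property of that clone and an effect of less EIF3C cannot be told apart, and no control construct is described for the parental cells. The labels do not say whether the replicates were separate cultures, so the p-values measure the spread between these arrays, and their number limits the precision.

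Collagens are extracellular proteins built from 3 chains wound into a triple helix. Fibril-forming collagens make the rope-like fibres of connective tissue, type IV collagens make the sheet of the basement membrane on which an epithelium rests, and other classes coat fibrils, anchor the epithelium or span the cell membrane. The chains are hydroxylated and folded in the endoplasmic reticulum, exported in enlarged carriers, trimmed by proteases and cross-linked outside the cell. Carcinoma cells and stromal fibroblasts both make collagens, and epithelial cells are a usual source of types IV and VII.

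Type IV genes lie in head-to-head pairs that share the DNA between their starts, so the sequences around those starts are shown before the values of the pairs. In the RefSeq windows on GRCh38.p14, COL4A1 and COL4A2 start on opposite strands of chromosome 13 with 126 bases between their starts. On the X chromosome, 379 bases lie between the starts of COL4A5 and COL4A6. The first sequence is the whole interval between the starts of COL4A1 and COL4A2 (chr13:110307158-110307283, plus strand, 80.2% G or C). The others are the 250 bases before the start of COL4A5 (chrX:108439588-108439837, plus strand, 51.2% G or C) and before the upper start of COL4A6 (chrX:108439459-108439708, minus strand, 44% G or C), and they share 121 bases. RefSeq gives COL4A6 a second start 1036 bases from that one. Capitals mark CCAAT or its reverse complement and GGGCGG or its reverse complement.
COL4A1 and COL4A2 interval: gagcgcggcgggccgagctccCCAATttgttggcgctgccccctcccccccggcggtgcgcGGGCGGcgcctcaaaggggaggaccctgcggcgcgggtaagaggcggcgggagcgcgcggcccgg
COL4A5 upstream: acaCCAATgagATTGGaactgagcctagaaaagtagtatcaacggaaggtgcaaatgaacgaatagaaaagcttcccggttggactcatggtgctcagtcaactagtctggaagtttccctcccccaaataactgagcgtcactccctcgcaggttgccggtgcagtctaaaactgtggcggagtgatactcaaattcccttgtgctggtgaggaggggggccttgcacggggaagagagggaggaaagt
COL4A6 upstream: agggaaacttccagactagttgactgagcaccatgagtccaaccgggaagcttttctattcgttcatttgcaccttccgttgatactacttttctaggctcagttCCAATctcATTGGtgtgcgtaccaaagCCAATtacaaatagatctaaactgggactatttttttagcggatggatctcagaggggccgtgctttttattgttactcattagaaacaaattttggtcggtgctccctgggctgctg
The COL4A1 and COL4A2 interval held 1 CCAAT and 1 GGGCGG, the COL4A5 window held 2 CCAAT matches and no GGGCGG, and the COL4A6 window held 3 CCAAT matches. Both COL4A5 matches lie in the 121 shared bases and are 2 of the 3 in the COL4A6 window. A match in shared bases counts in the window of each gene. Matches were counted on both strands, and the motifs do not overlap each other here. CCAAT stood in 32% of all 35116 windows of 250 bases before a start and in 11 of the 43 windows of collagen genes, and GGGCGG in 42.6% and in 24 of 43. TATAAA stood in 10.7% of all windows and in 7 of 43 collagen windows, and TGANTCA in 6.57% and in 1 of 43. Windows were found for 31 members and not for 12 (COL1A1, COL1A2, COL2A1, COL3A1, COL5A2, COL6A1, COL6A5, COL8A1, COL9A3, COL14A1, COL20A1 and COL22A1). A match describes these letters and not a bound site.

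The arrays had medians between 6.09 and 6.11 on the log2 scale of the deposited signal. Array correlations over the human probe sets were about 0.998 within groups and between 0.982 and 0.985 across groups. EIF3C had 5 probe sets, all of which also name EIF3CL, and 3 of them were above 10 in the control. The brightest fell from 10.62 ± 0.06 to 8.44 ± 0.04 (SD, n = 3), to 22.1% of the control level (limma adjusted p = 6.58e-15). Of 8 genes listed as squamous epithelial markers, 6 were measured, without TP63 and KRT6A. The epithelial genes CDH1 and EPCAM were bright, at 11.21 and 11.89 in the control. The others, KRT5 (5.91), KRT14 (5.85), SOX2 (5.77) and PKP1 (5.19), lay under the median of tested genes, 7.61. Of 8 fibroblast markers 1 was above the level needed to be tested: PDGFRB, at 6.21 in the control, above KRT5. The rest were under that level, from LUM (2.60) to PDGFRA (4.42), with DCN at 3.60. Among 85 control probe sets for non-human sequences, which should not respond to the cells, the largest difference between the groups was 0.22.

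**Figure D1:**
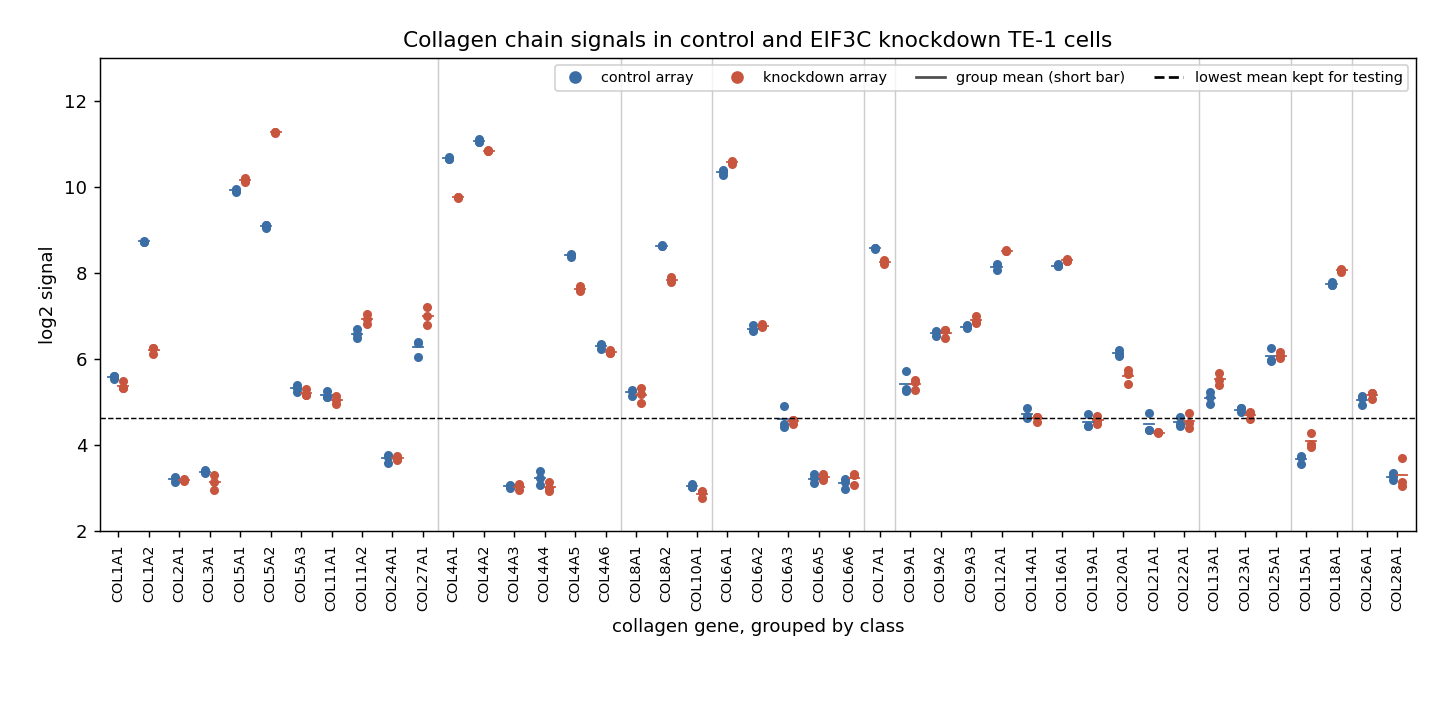
Signal of the 43 collagen genes on each of the 6 arrays (log2 signal), with the groups in separate colours and the filter level of 4.63 as a dashed line. COL5A2 and COL1A2 show the widest separation of the groups, and for 14 genes the means of both groups lie under the dashed line.

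Of the 43 collagen genes, 29 passed a filter that left out the lowest 25% of genes by mean, and 14 stayed under that level in both groups. Among the 29, 10 rose in the knockdown cells, 8 fell and 11 did not pass the test (limma, Benjamini-Hochberg adjusted p under 0.05). That was 62.1% called, against 66.5% of all 13599 genes tested. Genes called higher were 32.4% of all tested genes, and genes called lower 34.1%. The median difference of the 29 was -0.01, against -0.03 over all tested genes, and the median size of a difference was 0.22 against 0.23. Signals did not overlap between the groups for 20 of the 29, against 70.3% of all tested genes. Shares and medians of the collagen genes were thus near those of all genes. In bulk RNA, fewer cells making a transcript and less of it per cell cannot be told apart.

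Changes of at least 2-fold were seen in 1 collagen gene in each direction: COL5A2 rose and COL1A2 fell. Over all tested genes 2.6% rose and 2.22% fell by that much. Of the 18 called collagen genes, 15 changed by more than the 0.22 seen in the control probe sets, COL4A2 only narrowly (0.2216 against 0.2209). Over all genes, 6896 of the 9037 called changed by more than that.

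**Figure D2:**
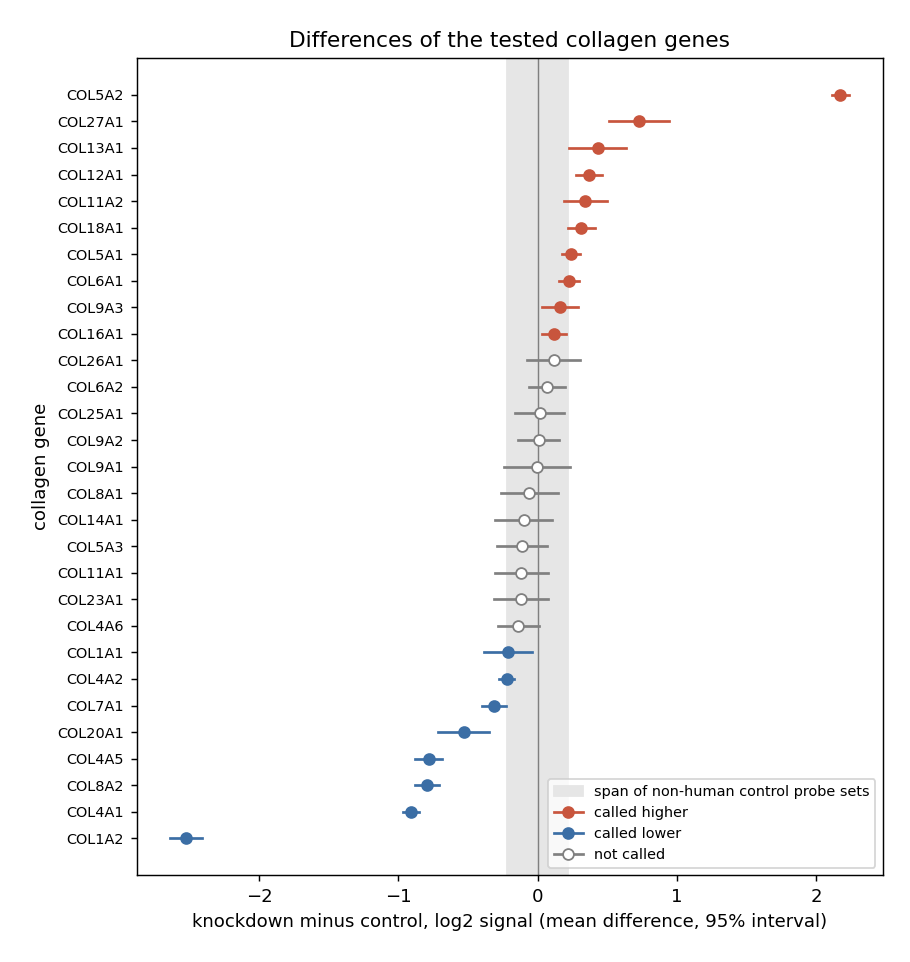
Difference between knockdown and control (log2) for the 29 tested collagen genes with its 95% interval, over a grey span of 0.22 either way for the control probe sets. COL5A2 at 2.18 and COL1A2 at -2.52 stand furthest from 0.

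Among the fibril-forming genes, 11 were measured and 8 tested, of which 4 rose, 2 fell and 2 did not pass. COL1A2, the alpha 2 chain of type I collagen, the main fibre of bone and skin, read 8.73, 8.74 and 8.76 in the control arrays and 6.12, 6.26 and 6.27 in the knockdown arrays. The groups lay far apart with little spread in either. Its mean went from 8.74 ± 0.01 to 6.22 ± 0.08 (SD, n = 3), a difference of -2.52 (SE 0.05, 95% interval -2.64 to -2.41), which leaves 17.4% of the control signal (limma adjusted p = 4.98e-16). All 6 probe sets of COL1A2 were called lower, the other 5 at 27.1% to 75.5% of control. The probe set printed is the one that fell most, and the mean of the probe sets gave a difference of -1.63.

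COL1A1, which supplies the other chain of the type I trimer, read 5.62, 5.54 and 5.62 in the control and 5.33, 5.33 and 5.50 in the knockdown. Its groups did not overlap but lay close together. The difference of -0.21 (95% interval -0.38 to -0.04) gave a limma adjusted p of 0.0311, and was smaller than the largest control difference. The call rests on 1 of its 5 probe sets. It was lost on leaving out control replicate 1 (adjusted p = 0.0885), control replicate 3 (0.0515), knockdown replicate 1 (0.118) or knockdown replicate 2 (0.101), after quantile normalization (0.0531), and with the mean of the probe sets (0.337).

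COL5A2, a chain of type V collagen, which starts and regulates fibril width, read 9.11, 9.06 and 9.13 in the control and 11.26, 11.28 and 11.29 in the knockdown. All knockdown arrays were above all control arrays by more than the spread within either group. The mean rose from 9.10 ± 0.04 to 11.28 ± 0.02 (SD, n = 3), a difference of 2.18 (SE 0.03, 95% interval 2.11 to 2.24) or 4.52-fold (limma adjusted p = 3.16e-18). All 6 of its probe sets were called higher, by 0.60 to 2.53, and their mean gave 1.63. COL3A1, the protein-coding neighbour of COL5A2 on chromosome 2, was under the filter level at 3.39 in the control and 3.14 in the knockdown.

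COL5A1, the partner chain of type V, read 9.90, 9.96 and 9.93 in the control and 10.11, 10.21 and 10.18 in the knockdown, and the groups did not overlap. It rose by 0.24 (95% interval 0.17 to 0.31), or 1.18-fold (limma adjusted p = 3.16e-06). Other COL5A1 probe sets were called lower, at -0.25 and -0.22, so its direction depends on the probe set read. With the mean of its probe sets the difference was -0.07 (adjusted p = 0.0649).

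COL27A1 rose from 6.28 ± 0.20 to 7.01 ± 0.20 (SD, n = 3), or 1.66-fold (limma adjusted p = 6.51e-06), a reading that rests on 1 probe set. COL11A2, a cartilage fibril chain, rose by 0.34 (limma adjusted p = 0.000509). COL5A3 (-0.11, 95% interval -0.29 to 0.07) and COL11A1 (-0.12, -0.31 to 0.07) did not pass. COL2A1 and COL24A1 were under the filter level.

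Of the 6 basement membrane genes of type IV, 4 were tested: COL4A1, COL4A2 and COL4A5 fell and COL4A6 did not pass. COL4A1 read 10.71, 10.66 and 10.66 in the control and 9.77, 9.78 and 9.74 in the knockdown. COL4A2, which joins COL4A1 in the most common type IV trimer, read 11.11, 11.05 and 11.04 against 10.87, 10.83 and 10.84. Neither gene's groups overlapped, and all 3 probe sets of each were called lower. COL4A1 fell by 0.91 (SE 0.03), to 53.2% of control (limma adjusted p = 3.23e-14), and COL4A2 fell by 0.22, to 85.8% (adjusted p = 6.43e-07). The size of the COL4A1 fall depends on the probe set: the others were at -0.12 (92.1% of control) and -0.48, and the mean of the probe sets gave -0.50. The COL4A2 probe sets lay between -0.34 and -0.17.

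COL4A5, whose trimers serve kidney and skin basement membranes, read 8.38, 8.46 and 8.44 in the control and 7.70, 7.64 and 7.59 in the knockdown. The groups did not overlap, and the fall of 0.78 (SE 0.05) left 58.2% of control (limma adjusted p = 1.19e-10). A dimmer COL4A5 probe set fell by 0.44, another under the filter level was at -0.05, and the mean of the probe sets gave -0.42. Its head-to-head neighbour COL4A6 read 6.36, 6.33 and 6.23 against 6.23, 6.14 and 6.15. The COL4A6 groups did not overlap but came within rounding at 6.23, and the difference of -0.14 (95% interval -0.28 to 0.01) did not pass (limma adjusted p = 0.0882), while 2 dimmer probe sets of COL4A6 were called higher, at 0.41 and 0.57. The COL4A6 difference passed as a fall without control replicate 3 (adjusted p = 0.0328) and without the intensity trend (0.0339). With the mean of its probe sets COL4A6 was instead called higher, at 0.19 (limma adjusted p = 0.0226), so its direction depends on the probe set read. COL4A3 read 3.05, 3.02 and 3.07 in the control and 3.10, 2.96 and 3.05 in the knockdown, and COL4A4 3.09, 3.41 and 3.25 against 3.15, 3.02 and 2.93. Both were under the filter level, and without detection calls a low signal does not show that a transcript was missing.

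The shift between chains of 1 type was also taken within each array, as the log2 signal of one chain minus that of the other, for 6 pairs. The log ratio of COL1A2 to COL1A1 was lower in the knockdown by 2.31, that of COL4A1 to COL4A2 by 0.69 and that of COL4A5 to COL4A6 by 0.64. The log ratio of COL5A2 to COL5A1 was higher by 1.94, that of COL8A2 to COL8A1 was lower by 0.73 and that of COL6A1 to COL6A2 was higher by 0.16. The groups did not overlap in any of the 6 pairs. Each gave an exact two-sided permutation p of 0.1, the smallest that 3 arrays against 3 can give, and 0.1 after Benjamini-Hochberg adjustment. Every pair holds at least 1 chain that was itself called, and 70.3% of all tested genes did not overlap singly. The share for ratios of other gene pairs was not taken, so the count shows nothing particular to collagen. Other chains of 1 type, such as COL11A2 and COL11A1, were not paired. These ratios use the brightest probe set of each gene. Every probe set of COL1A2 fell more than every one of COL1A1, every one of COL5A2 rose more than every one of COL5A1, and both of COL8A2 lay below those of COL8A1. For the other pairs the probe sets of the chains overlapped in their differences, so the direction of those ratios depends on the probe set: the COL4A1 probe set at -0.12 moved less than each COL4A2 probe set. A ratio shows unequal change and not that either chain stayed the same.

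**Figure D3:**
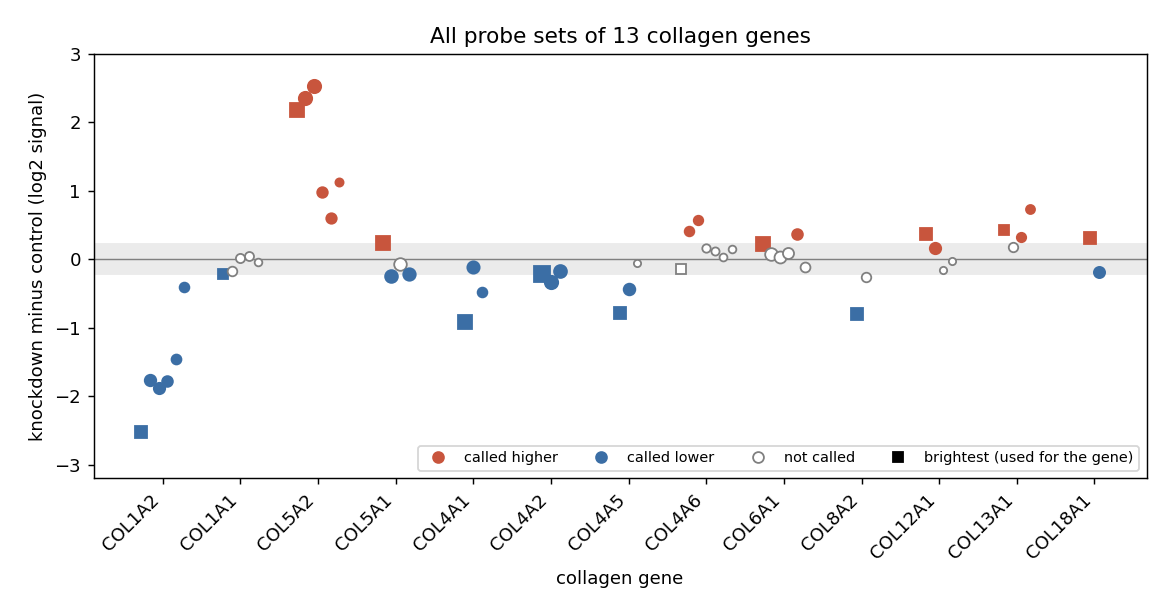
Difference between knockdown and control (log2) for every probe set of the called collagen genes with more than 1, except COL11A2, and of COL4A6, which was not called. A square marks the brightest, symbol size grows with signal and a grey band spans 0.22 either way. The probe sets of COL1A2, COL5A2, COL4A1, COL4A2, COL4A5, COL8A2 and COL13A1 each lie on 1 side of 0. Those of COL1A1, COL5A1, COL4A6, COL6A1, COL12A1 and COL18A1 lie on both.

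Several probe sets were present for 13 of the called genes. Of these, 4 had every one called the same way (COL1A2, COL5A2, COL4A1 and COL4A2), and 2 had a further probe set called the opposite way (COL5A1 and COL18A1). The matching shares over all called genes were not taken, so these counts cannot be read as usual or unusual. Some probe sets that were not called, as for COL12A1, COL11A2 and COL4A5, were under the filter level. Probe sets can read different isoforms or different parts of a transcript, and which of these applied was not tested.

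COL7A1, the anchoring fibril chain that fastens squamous epithelium to the tissue beneath, read 8.58, 8.58 and 8.59 in the control and 8.28, 8.21 and 8.32 in the knockdown. Its groups did not overlap, and it fell by 0.31, to 80.7% of control (limma adjusted p = 3.53e-06). It has 1 probe set, so no other reads it.

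Among the short-chain network genes, COL8A2, a chain of the sheet under endothelium and cornea, read 8.66, 8.64 and 8.64 in the control and 7.81, 7.90 and 7.84 in the knockdown. The groups lay apart, and the fall of 0.79 left 57.7% of control (limma adjusted p = 3.41e-11). A dimmer probe set of COL8A2 was at -0.26 and not called, and the mean of both gave -0.52. Its partner COL8A1 was at -0.06 (95% interval -0.26 to 0.15) and did not pass, and COL10A1 was under the filter level.

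Of the beaded filament genes of type VI, COL6A1 read 10.41, 10.36 and 10.28 in the control and 10.61, 10.54 and 10.58 in the knockdown. The groups did not overlap, and it rose by 0.23, or 1.17-fold (limma adjusted p = 1.01e-05), though 4 of its 6 probe sets were not called and their mean gave 0.11 (adjusted p = 0.0292). COL6A2, which neighbours it on chromosome 21, read 6.79, 6.66 and 6.69 against 6.78, 6.76 and 6.82. Those COL6A2 groups overlapped, and the difference of 0.07 (95% interval -0.06 to 0.20) did not pass. COL6A3, COL6A5 and COL6A6 were under the filter level.

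Of the fibril-associated genes, 10 were measured and 7 tested, and 3 rose, 1 fell and 3 did not pass. COL12A1, which coats type I fibrils, read 8.18, 8.21 and 8.07 in the control and 8.51, 8.55 and 8.51 in the knockdown. The groups did not overlap, and it rose by 0.37, or 1.29-fold (limma adjusted p = 1.19e-06). With the mean of its 4 probe sets the difference of 0.09 did not pass (adjusted p = 0.172). COL16A1 read 8.21, 8.16 and 8.16 against 8.29, 8.33 and 8.28, which do not overlap, and its rise of 0.12 (adjusted p = 0.0173) was lost without control replicate 2 (0.0569) or knockdown replicate 2 (0.0694). COL9A3 was higher by 0.16 (adjusted p = 0.0292), a call lost without control replicate 1 (0.0677), control replicate 2 (0.0762) or knockdown replicate 2 (0.162). COL20A1 fell by 0.53 (adjusted p = 3.63e-05). It, COL16A1 and COL9A3 have 1 probe set each, so no other reads them. COL9A1, COL9A2 and COL14A1 did not pass, and COL19A1, COL21A1 and COL22A1 were under the filter level.

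COL18A1, whose C-terminal fragment is endostatin, read 7.79, 7.73 and 7.73 in the control and 8.07, 8.10 and 8.04 in the knockdown. The groups did not overlap, and it rose by 0.32, or 1.24-fold (limma adjusted p = 8.52e-06), whereas its other probe set was called lower, at -0.18, and their mean did not pass (0.07, adjusted p = 0.161). COL15A1, the other gene of that class, was under the filter level. Of the membrane-spanning genes, COL13A1 rose by 0.43, or 1.35-fold (adjusted p = 0.000736), with 3 of its 4 probe sets called higher, and COL23A1 and COL25A1 did not pass. COL26A1 did not pass and COL28A1 was under the filter level.

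With no filter, 11 of the 43 collagen genes were called higher and 9 lower, against 51.6% of all 18132 genes called in either direction. The added genes were COL15A1, higher (limma adjusted p = 0.00209), and COL3A1, lower (adjusted p = 0.0309). Both lie at levels where detection was not assessed. The summed signal of the 8 fibroblast markers was 7.33 to 7.47 in the control and 7.50 to 7.61 in the knockdown, and its 8 members differed by -0.19 (LUM) to 0.84 (FAP, 3.88 to 4.72). The summed signal of the endothelial markers was 7.72 to 7.83 against 7.83 to 7.86, that of the leukocyte markers 6.89 to 7.20 against 6.79 to 6.89, and that of the squamous epithelial markers 12.60 to 12.67 against 12.84 to 12.87. EPCAM and CDH1, by far the brightest, make up most of the squamous sum. CDH1 (0.23), EPCAM (0.21) and KRT5 (0.18) were higher, while SOX2 (-0.25), KRT14 (-0.18) and PKP1 (-0.07) were lower. Of these, CDH1, EPCAM and SOX2 passed the test. The part of these marker levels in the collagen results was not tested.

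The genes that make collagen chains into matrix were read next, each from its brightest probe set. Agreement of their further probe sets is not given gene by gene, so size or direction may depend on the probe set. The same holds for the receptor and matrix genes below. Of 40 maturation genes, 39 were measured and 36 tested, and 13 rose, 15 fell and 8 did not pass, which is 77.8% called against 66.5% of all genes. Their median difference was -0.06, against -0.03 over all genes. Among genes of hydroxylation, glycosylation and folding, 4 rose, 8 fell and 3 did not pass. FKBP10, a folding isomerase, fell by 0.49 (limma adjusted p = 7.64e-08), and P3H4 fell by 0.46. P3H1, a prolyl 3-hydroxylase, rose by 0.41 (adjusted p = 4.12e-06), and PPIB, its cyclophilin partner, rose by 0.41 (adjusted p = 2.14e-11). The collagen chaperone SERPINH1 was at -0.02 (adjusted p = 0.583).

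Of the secretion genes, 5 rose, 3 fell and 1 did not pass. MIA2 fell by 0.48, SAR1B, a GTPase of the export coat, rose by 0.44, and SEC24D, a coat subunit, and KLHL12, an adaptor that enlarges the carrier, fell by 0.32 and 0.26. Of the propeptide genes, 1 rose, 3 fell and 2 did not pass. PCOLCE2, an enhancer of procollagen C-proteinase, read 4.37, 4.10 and 3.89 in the control and 5.82, 5.79 and 5.58 in the knockdown. Its groups lay apart, and the mean rose from 4.12 to 5.73, or 3.05-fold (limma adjusted p = 1.71e-09). BMP1, the C-proteinase, fell by 0.71 (adjusted p = 2.06e-09), and the ADAMTS3 and ADAMTS14 N-proteinases fell by 0.61 and 0.37. Of the cross-linking genes, 3 rose, 1 fell and 2 did not pass. PXDN, which cross-links type IV collagen, rose from 8.94 to 9.94, and LOXL1, a lysyl oxidase, fell from 8.60 to 7.64 (adjusted p = 8.77e-12). LOXL2 and LOXL3 were higher by 0.35 and 0.32.

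**Figure D4:**
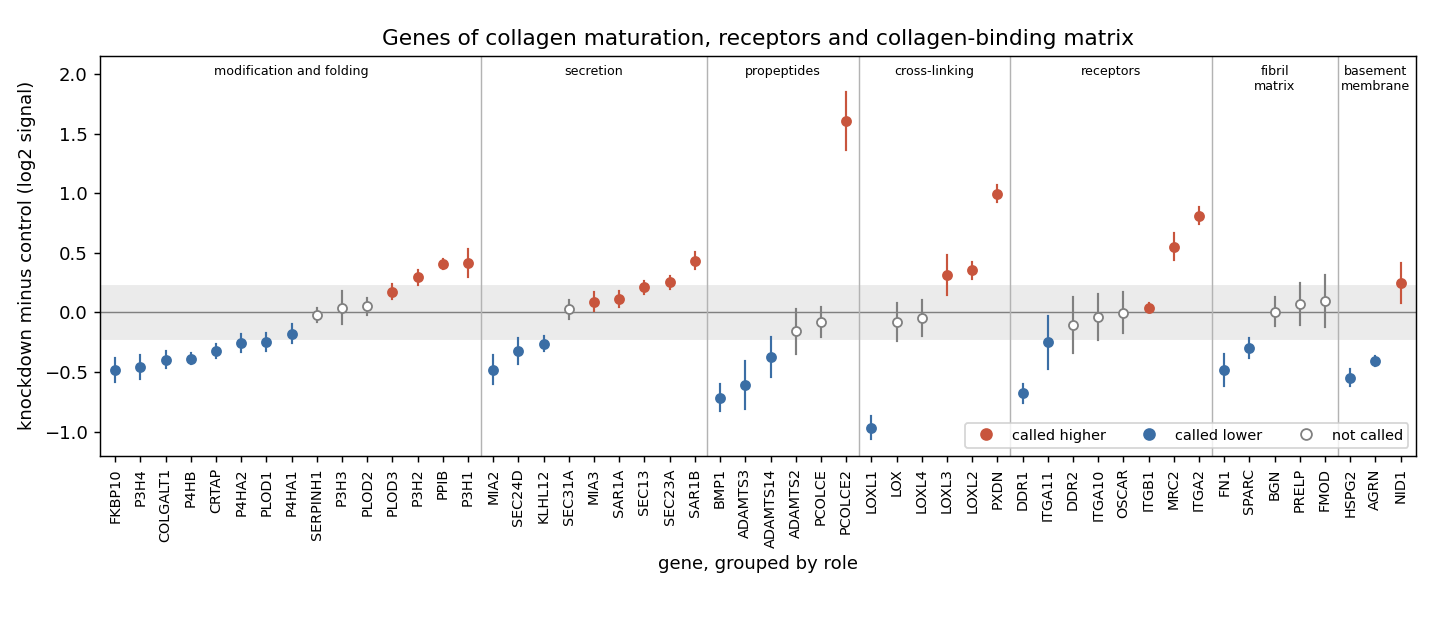
Difference between knockdown and control (log2) with its 95% interval for the tested genes of collagen maturation, collagen receptors and collagen-binding matrix. PCOLCE2 at 1.61 lies furthest above 0 and LOXL1 at -0.97 furthest below.

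Of 11 collagen receptors measured, 8 were tested, and 3 rose, 2 fell and 3 did not pass. That was 62.5% called, near the 66.5% of all tested genes. ITGA2, the alpha chain of an epithelial collagen integrin, rose by 0.81 (limma adjusted p = 1.94e-12), while DDR1, a collagen receptor kinase of epithelia, fell by 0.68 (adjusted p = 4.83e-11). MRC2, which takes up collagen fragments, rose by 0.55 (adjusted p = 6.3e-08). The third call upward was ITGB1, the shared integrin beta chain, at only 0.04 (adjusted p = 0.0449), and with no filter it did not pass (0.0644). ITGA11 passed at -0.25 (adjusted p = 0.0448), though its groups overlapped. Of 13 collagen-binding matrix genes measured, 8 were tested, and 1 rose, 4 fell and 3 did not pass, again 62.5% called. In the fibril-binding group FN1, fibronectin, fell by 0.48 (adjusted p = 3.5e-06) and SPARC fell by 0.30. In the basement membrane group HSPG2, perlecan, fell by 0.55 (adjusted p = 2.99e-10), AGRN, agrin, fell by 0.40 (adjusted p = 1.22e-11) and NID1, nidogen, was higher by 0.25 (adjusted p = 0.0102).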

How the data were processed

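Affymetrix array values of 3 EIF3C knockdown and 3 control samples were used. The authors deposited log2 signal values for 49395 probe sets, made with MAS5 per the submitters' processing notes, which name no version or settings. That they are logarithms was read from their range, 1.95 to 14.1, and no further normalization was applied. Probe sets were named through the platform annotation: 44988 had 1 symbol, 1832 had several and 2473 none. Each gene was read from its brightest probe set. The lowest 25% of genes by mean were left out, and limma 3.58.1 in R 4.3.3 (lmFit, eBayes with an intensity trend) compared the groups, with Benjamini-Hochberg adjustment over all genes tested and a threshold of 0.05. Probe sets of a gene, and EIF3C, were tested over all human probe sets. The code was tested on simulated data.

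The members and gene lists were chosen with earlier results of these data known. Values of every array were given for genes changed at least 2-fold, chains of types I and IV, tested chains of type VI, COL7A1, COL18A1 and other called members at or above the median of tested genes. Of each role in the other lists, up to 4 called genes with the largest change were named, and SERPINH1, ITGB1 and the arrays of PCOLCE2 were added after their values were seen. The alternatives were other filters, quantile normalization, median centring, the mean of probe sets, no intensity trend, a replicate block and leaving out each replicate. Motifs and starts came from RefSeq windows on GRCh38.p14. The labels give no pairing, so the numbers were not taken as pairs in the main fit. Same-numbered samples had correlations of deviations of 0.0741, 0.105 and 0.167, and the others lay between -0.133 and 0.056. A shared replicate effect is therefore possible, and the replicate block is the fit that allows for it.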

Additional observations from a re-analysis of the deposited data

How the results depend on the processing

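Single collagen genes were compared under 6 alternative settings, the block and the 6 fits without 1 array. They kept their direction and side of the threshold in 329 values, lost the call in 13, gained it in 2 and changed sign in 14. Values that changed sign were not also counted by their call. With the mean of probe sets COL4A6 was at 0.19 and passed as higher (limma adjusted p = 0.0226), COL5A1 was at -0.073 and COL6A2 at -0.04. COL9A1 was at 0.018 with quantile normalization and 0.0024 with median centring. Without 1 array, COL9A1 ranged from -0.090 to 0.14, COL9A2 from -0.028 to 0.071, COL25A1 from -0.037 to 0.11 and COL8A1 from -0.14 to 0.032, none of them called. The causes were not tested. The receptor genes called higher were 2, not 3, with quantile normalization, the mean of probe sets, no intensity trend or the replicate block, and 2 to 3 without 1 array. Those called lower were 1, not 2, with the 50% filter, quantile normalization, median centring or the mean of probe sets, and 1 to 2 without 1 array (2 only without control replicate 2). The collagen-binding matrix genes called higher were 0, not 1, with the 50% filter or the mean of probe sets, and 0 to 1 without 1 array (0 only without knockdown replicate 2). Called collagen genes with a probe set called the opposite way were 1 to 2 without 1 array. The 50% filter tests 15 collagen genes. With the replicate block, 10 collagen genes were called higher and 8 lower, as without it, and 9307 against 9037 of all genes were called. Every sample correlated best with its own number, a hint from the data and not the design. The number of arrays and dim probe sets limit the precision.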
